A study of Saccharomyces cerevisiae with 3 samples.

Results

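The genes described here encode the enzymes, permease and transcription factors with which budding yeast, Saccharomyces cerevisiae, makes and recycles purine nucleotides. They were taken from a list of 34 symbols covering the supply of phosphoribosyl pyrophosphate (PRPP), the route to inosine monophosphate (IMP), the branches to AMP and GMP, salvage, and regulation, and were matched to the array annotation by symbol or alias. Of the 34 genes, 31 were matched among the 5203 named genes of the array, and 29 had a value on all 3 arrays and were tested. ADE5,7, ADE17 and IMD4 were not matched and are not analysed here, and the regulator genes BAS1 and PHO2 had no value on array 1.

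The 3 two-colour DNA microarrays each set a culture of strain S288C that had received 2-aminobenzimidazole at 5 mM, and was harvested 2 h later, against a culture kept equally long without it, both in rich glucose medium (YPD) at 25 °C. The compound came from a 500 mM stock. If the control cultures did not receive the solvent of that stock, its effect cannot be told apart from that of the compound. 2-Aminobenzimidazole is the bare amine related to the benzimidazole carbamate fungicides, and the comparison asked which transcripts differ after exposure. The series describes the 3 hybridisations as independent biological samples, and the title of array 1 carries a letter H that the labels do not explain. Treated RNA carried Cy5 and control RNA Cy3 on all 3 arrays, so an effect of the dye on a gene and an effect of the compound cannot be told apart.

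In yeast, as in other organisms, the purine ring is built stepwise on PRPP until IMP is reached. IMP is then turned into AMP by way of adenylosuccinate or into GMP by way of xanthosine monophosphate, and free bases taken up or released by turnover are rejoined to PRPP by salvage enzymes. The yeast ADE genes are known to be activated by the factors Bas1 and Pho2 (Bas2) when adenine is scarce, and to be less active in medium that holds adenine, as rich medium does.

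The deposited values were read as log2 ratios, treated over control, so that -1 is a 2-fold lower level. Direction and log base are not written in the table. The direction is likely from the channel labels, and with the opposite one higher and lower would be swapped. Base 2 was taken as customary, and a natural log, which is possible, would leave the calls as they are and make each fold larger. The ratios were normalised around the bulk of spots, so they give changes relative to other mRNAs, and less of a transcript per cell cannot be told apart from more of the others. Array 1 gave values for 3062 named genes, array 2 for 5044 and array 3 for 5158, and arrays 1 and 3 resembled each other more (Pearson r = 0.748 across 3039 genes, which are not independent replicates) than either resembled array 2 (0.520 and 0.468).

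Purine genes were mostly lower after exposure. Of the 29 tested genes, 12 (41.4%) fell at an adjusted p below 0.05, against 9.64% of all 3039 tested genes, and 0 rose, against 8.36% (limma, Benjamini-Hochberg adjustment over all tested genes). At an unadjusted p below 0.05, 18 were lower and 1 was higher, against 601 and 495 of all 3039 tested genes. All 12 genes that fell had a mean at least 2-fold lower. The genes that fell were PRS1 and PRS3 of PRPP supply, ADE4, ADE2, ADE1 and ADE13 of the route to IMP, ADK1 of the AMP branch, IMD3, GUA1 and GUK1 of the GMP branch, and AAH1 and HPT1 of salvage.

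The direction was shared by most of these genes across arrays. Of the 29 genes, 22 were below 0 on all 3 arrays, against 30.6% of all tested genes, and 4 were at least 2-fold lower on every array, against 3.75%. The 4 genes were ADE4, ADE2, GUA1 and AAH1. Over the 29 genes the median of the means was -1.03, against -0.04 over all tested genes, and the array medians were -1.06, -1.04 and -0.75. Which arrays entered the test mattered for the calls. Without array 1 or without array 3, 0 of the 29 genes and 0 of all 3039 tested genes passed in limma. At an unadjusted p below 0.05, 10 and 14 of the 29 genes were then lower, against 347 and 411 of all tested genes. Without array 2, 14 of the 29 genes fell, against 366 of all tested genes.

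**Figure D1:**
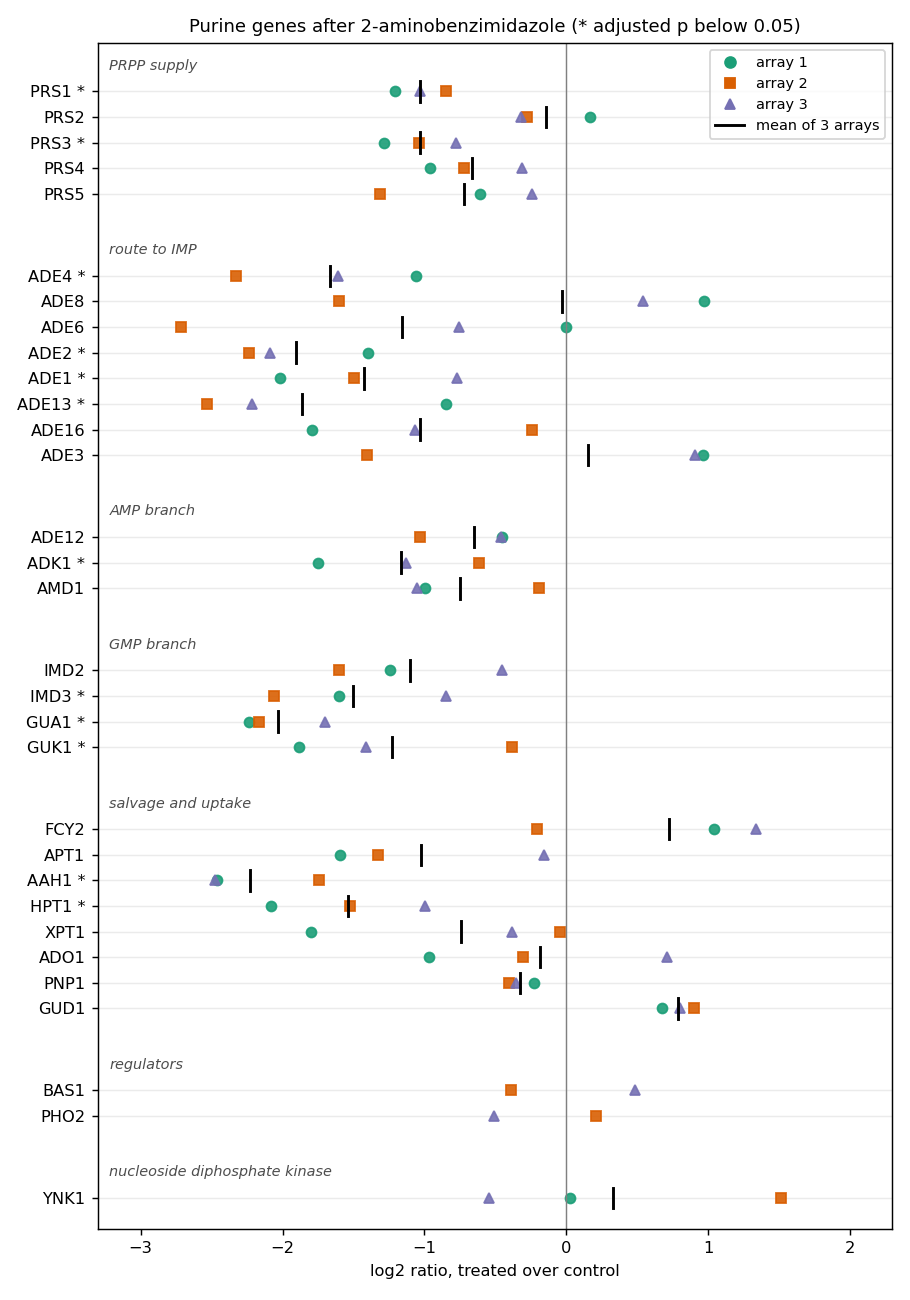
Log2 ratio of treated over control (horizontal axis) for each purine gene on array 1 (circles), array 2 (squares) and array 3 (triangles), with the mean of the 3 arrays as a black tick where all 3 gave a value; asterisks mark an adjusted p below 0.05 in limma. Most points lie left of 0, GUD1 lies right of 0 on all 3 arrays, and ADE3, ADE8 and FCY2 lie right of 0 on arrays 1 and 3 but not on array 2.

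PRPP supply came first in the order of the pathway, and 2 of its 5 genes fell (40%, against 9.64% of all tested genes). PRPP synthetase is encoded in yeast by PRS1 to PRS5, whose products work together in complexes. PRS1 (YKL181W) had log2 ratios of -1.20, -0.85 and -1.03 on arrays 1, 2 and 3 and fell to a mean of -1.03 ± 0.18 (SD, n = 3; 2.04-fold lower; adjusted p = 0.0382, limma). PRS3 (YHL011C) had -1.28, -1.04 and -0.78 and fell to -1.03 ± 0.25 (adjusted p = 0.0401, limma). These means were close to one another and lower than those of the other family members, although on array 2 PRS5 (-1.31) was lower than both genes.

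PRS4 (YBL068W) was below 0 on every array, with -0.96, -0.72 and -0.31, as was PRS5 (YOL061W), with -0.61, -1.31 and -0.24. Neither passed (adjusted p = 0.132 and 0.138, limma). PRS2 (YER099C) was near 0 on all 3 arrays, with 0.17, -0.27 and -0.32. Its 95% confidence interval of the mean ran from -0.78 to 0.49, which still includes moderate changes in either direction. PRS3 was lower than PRS2 on each array, by 1.45, 0.76 and 0.46 (log2). PRS3 and PRS2 had the lowest and the highest mean of the family, so this difference is a description only.

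Of the 8 tested genes of the route to IMP, 4 fell (50%, against 9.64% of all tested genes) and 4 did not pass. The median of the 8 means was -1.29 (2.45-fold lower). ADE4 (YMR300C), the amidotransferase that commits PRPP to purine synthesis, had -1.06, -2.33 and -1.61 on arrays 1, 2 and 3. It fell to -1.66 ± 0.64 (3.17-fold lower; adjusted p = 0.0202, limma). ADE2 (YOR128C), the carboxylase whose loss gives the red adenine mutants of yeast genetics, had -1.40, -2.24 and -2.09. It fell to -1.91 ± 0.45 (3.75-fold lower; adjusted p = 0.0130, limma), the lowest mean of the route and the 30th lowest of the 3039 tested genes.

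Transcripts for steps that follow ADE2 were also lower. ADE1 (YAR015W), which joins aspartate to the intermediate, had -2.02, -1.50 and -0.77 and fell to -1.43 ± 0.63 (2.69-fold lower; adjusted p = 0.0272, limma). ADE13 (YLR359W), the adenylosuccinate lyase, acts both in this route and in the last step to AMP. It had -0.85, -2.53 and -2.22 and fell to -1.87 ± 0.90 (3.65-fold lower; adjusted p = 0.0213, limma). Every array gave a value below -0.7 for each of these 4 ADE genes.

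ADE16 (YLR028C), a transformylase and cyclohydrolase for the last reactions to IMP, stood at -1.79, -0.24 and -1.06, below 0 throughout but uneven. Its mean of -1.03 ± 0.78 did not pass (adjusted p = 0.0819, limma), and did without array 2 (-1.43; adjusted p = 0.0167) or with array weights (-1.28; adjusted p = 0.0239). Its close copy ADE17 was not analysed, and whether the ADE16 spot also bound ADE17 cDNA was not tested.

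ADE6, ADE8 and ADE3 were the purine genes on which the arrays disagreed most. ADE6 (YGR061C), the formylglycinamidine synthetase, was near 0 on array 1 (-0.0043), at -2.72 on array 2 and at -0.75 on array 3. ADE8 (YDR408C), the glycinamide transformylase, was at 0.97, -1.60 and 0.54, and ADE3 (YGR204W), the folate enzyme that supplies formyl groups for purine synthesis, at 0.97, -1.40 and 0.91. In all 3 genes array 2 was lower than the mean of arrays 1 and 3 by more than 2 log2 units (-2.34, -2.36 and -2.34).

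None of these 3 genes passed with all arrays. ADE6 had a mean of -1.16 ± 1.40 (adjusted p = 0.140, limma), ADE8 of -0.03 ± 1.38 and ADE3 of 0.16 ± 1.35. The 95% interval for ADE8 ran from -1.18 to 1.12 and that for ADE3 from -0.98 to 1.29, so the 3 arrays could not place these means. Without array 2 the means were -0.38 for ADE6, 0.76 for ADE8 and 0.94 for ADE3.

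**Figure D2:**
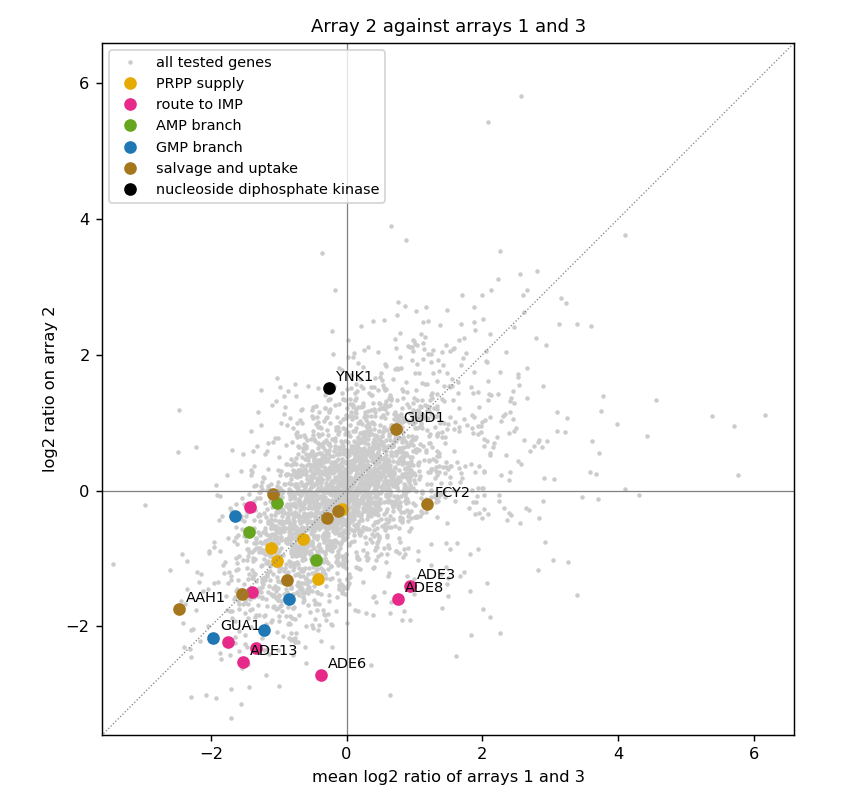
Log2 ratio on array 2 (vertical axis) against the mean log2 ratio of arrays 1 and 3 (horizontal axis) for all tested genes (grey) and for the purine genes, coloured by part of the pathway; the dotted line marks equal values. ADE6, ADE8 and ADE3 lie more than 2 log2 units below the line, AAH1 and GUA1 lie near it at the lower left, and YNK1 lies above it.

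On array 2 the route to IMP had a median of -1.92, and on arrays 1 and 3 of -0.95 and -0.92. Of its 8 genes, 6 had their lowest value on array 2, compared with 12 of the 29 purine genes and 37.6% of all tested genes. The pattern of ADE3 and ADE8, above 0 on arrays 1 and 3 and below 0 on array 2, was shared among the purine genes by FCY2. These 3 of 29 genes (10.3%) were close to the 9.87% of all tested genes with that pattern, a share near that of the whole array.

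All 3 genes of the AMP branch were below 0 on every array, and 1 of them fell. That share (33.3%, against 9.64% of all tested genes) rests on 1 gene. ADE12 (YNL220W), adenylosuccinate synthetase, which takes IMP towards AMP, had -0.46, -1.03 and -0.46. Its mean of -0.65 ± 0.33 did not pass (adjusted p = 0.140, limma). ADK1 (YDR226W), adenylate kinase, had -1.75, -0.61 and -1.13 and fell to -1.17 ± 0.57 (2.24-fold lower; adjusted p = 0.0425, limma). AMD1 (YML035C), AMP deaminase, runs in the opposite sense and returns AMP to IMP.

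AMD1 had -0.995, -0.19 and -1.05, so the enzyme genes into and out of AMP were below 0 together. Its mean of -0.75 ± 0.48 did not pass with all arrays (adjusted p = 0.119, limma), and passed without array 2 (-1.02; adjusted p = 0.0414). ADK1 and AMD1 were least lowered on array 2, where ADE12 was most lowered.

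In the GMP branch 3 of 4 tested genes fell (75%, against 9.64% of all tested genes). The median of the means was -1.36 (2.57-fold lower), close to that of the route to IMP. Without array 1 the medians were -1.24 for the GMP branch and -1.435 for the route to IMP. GUA1 (YMR217W), GMP synthase, had -2.24, -2.17 and -1.70 on arrays 1, 2 and 3. It fell to -2.03 ± 0.29 (4.10-fold lower; adjusted p = 0.010, limma), the 24th lowest mean of the tested genes. Its arrays lay within 0.54 log2 units of each other, closer than those of any tested gene of the route to IMP.

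IMP dehydrogenase, the enzyme that commits IMP to GMP, is encoded by closely related IMD genes. IMD3 (YLR432W) had -1.60, -2.06 and -0.85 and fell to -1.50 ± 0.61 (2.83-fold lower; adjusted p = 0.0234, limma). IMD2 (YHR216W), known for its induction when guanine nucleotides run short, had -1.24, -1.60 and -0.45, a mean of -1.10 ± 0.59 (2.14-fold lower; adjusted p = 0.0510, limma), and passed with array weights (-1.07; adjusted p = 0.0310). It was not raised on any array.

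IMD3 was lower than IMD2 by nearly the same amount on each array, by 0.36, 0.46 and 0.40 (log2; mean difference -0.40 ± 0.05, n = 3). With 3 arrays an exact sign-flip test of such a difference cannot go below p = 0.25. The IMD genes are near-identical over much of their length, and how far each spot also measured the other copies was not tested. GUK1 (YDR454C), guanylate kinase, which makes GDP from GMP, had -1.88, -0.38 and -1.41. It fell to -1.23 ± 0.77, at the edge of the threshold (adjusted p = 0.0495, limma), a call lost with centred arrays (0.0574), with genes on at least 2 arrays (0.0542) or with genes of 1 spot (0.0508).

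**Figure D3:**
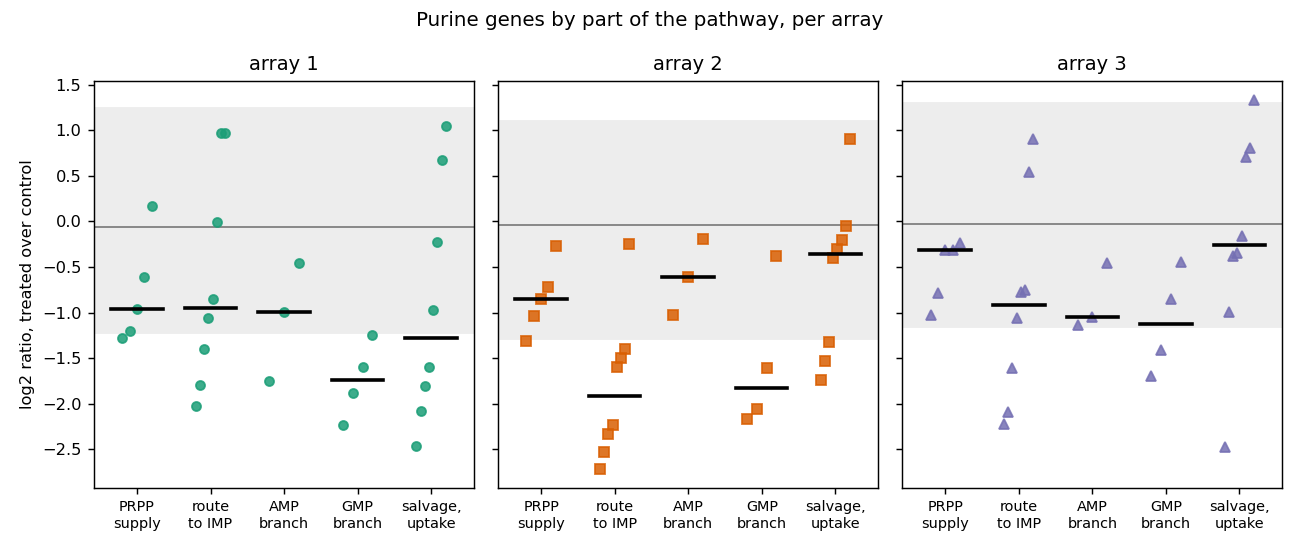
Log2 ratio of treated over control (vertical axis) for the purine genes on each array, by part of the pathway (horizontal axis); each point is a gene, black bars are medians of the genes shown, the grey line is the median of all tested genes and the grey band spans their 10th to 90th percentiles. The medians of all 5 parts lie below the grey line on every array, and that of the route to IMP is lowest on array 2, at -1.92.

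Differences between parts of the pathway were about as large as their spread over the arrays. The GMP branch median was lower than the AMP branch median on all 3 arrays, by 0.74, 1.22 and 0.08 (log2), a mean difference of -0.68 ± 0.57. The route to IMP was higher than salvage on array 1 (by 0.33) and lower on arrays 2 and 3 (differences of -1.56 and -0.66). Against the GMP branch the route to IMP differed by 0.79, -0.09 and 0.21, a mean difference of 0.30 ± 0.44. The 3 arrays do not allow an exact test of these differences below p = 0.25.

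Of the 8 genes of salvage and uptake, 2 fell (25%, against 9.64% of all tested genes) and 6 did not pass. This was the most mixed part, with means from -2.23 to 0.79. Its median of -0.53 moved between -0.78 and -0.30 when single arrays were left out. AAH1 (YNL141W), adenine deaminase, which turns adenine into hypoxanthine and is known to be shut off when cells leave growth for the resting state, had -2.46, -1.74 and -2.47. It fell to -2.23 ± 0.42 (4.68-fold lower; adjusted p = 0.010, limma). This was the lowest mean of the purine genes and the 10th lowest of all tested genes.

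HPT1 (YDR399W), the phosphoribosyltransferase for hypoxanthine and guanine, uses the product of adenine deaminase. It had -2.08, -1.53 and -0.997 and fell to -1.54 ± 0.54 (2.90-fold lower; adjusted p = 0.0213, limma). The transcripts for both steps of the path from adenine through hypoxanthine to IMP were thus lower on every array. APT1 (YML022W), which converts adenine straight to AMP, was lower on arrays 1 and 2 (-1.59 and -1.32) than on array 3 (-0.16). Its mean of -1.02 ± 0.76 did not pass (adjusted p = 0.0823, limma), though it did with array weights (-1.11; adjusted p = 0.0436).

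XPT1 (YJR133W), the xanthine phosphoribosyltransferase, was low on array 1 alone, with -1.80, -0.05 and -0.38 (adjusted p = 0.206, limma). ADO1 (YJR105W), adenosine kinase, which recycles the adenosine released by the methyl cycle, had -0.97, -0.31 and 0.71, and its arrays shared no direction (adjusted p = 0.743). PNP1 (YLR209C), purine nucleoside phosphorylase, was slightly below 0 on all 3 arrays, with -0.22, -0.40 and -0.35 (-0.33 ± 0.09; adjusted p = 0.402). The 95% interval for PNP1 ran from -0.94 to 0.28, which leaves out a 2-fold change in either direction.

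GUD1 (YDL238C), guanine deaminase, which breaks guanine down to xanthine, was the one gene above 0 on every array, where 25.8% of all tested genes were. It had 0.67, 0.90 and 0.80, a mean of 0.79 ± 0.11 (1.73-fold higher). The arrays were close to each other, but the mean did not pass (adjusted p = 0.0766, limma; unadjusted p = 0.0180; 95% interval 0.18 to 1.40).

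FCY2 (YER056C), the permease that brings adenine, guanine, hypoxanthine and cytosine into the cell, was high on arrays 1 and 3 (1.04 and 1.34) and not on array 2 (-0.21). Its mean of 0.72 ± 0.82 did not pass with all arrays (adjusted p = 0.191, limma). Without array 2 it was higher at 1.19 (adjusted p = 0.0260), the 1 purine gene called higher in any of the settings tried. In the gene order of RefSeq assembly R64, FCY2 lies next to HIS1, the first gene of histidine synthesis. HIS1 had 1.69, -1.73 and 1.11 on the same arrays, so both neighbours were higher on arrays 1 and 3 than on array 2. HPT1 likewise lies next to URH1, a nucleosidase gene from the linked genes described below, but that pair did not share a pattern. HPT1 had -2.08, -1.53 and -0.997 and was highest on array 3. URH1 had -0.59, 0.15 and -0.47 and was highest on array 2.

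YNK1 (YKL067W), the nucleoside diphosphate kinase that serves purines and pyrimidines alike, had 0.03, 1.51 and -0.55 (mean 0.33 ± 1.06; adjusted p = 0.600, limma). It was highest on array 2 and below 0 on array 3 alone. Of the regulators, BAS1 (YKR099W), the Myb-type activator of the ADE genes, had -0.39 on array 2 and 0.49 on array 3. PHO2 (YDL106C), its homeodomain partner, had 0.21 and -0.51. Each of them thus had a value on either side of 0, and neither was tested with all arrays.

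Genes linked to purine synthesis were set beside these in 3 lists. Among one-carbon and folate genes, which supply glycine and formyl groups to the ring, 3 of 15 fell (20%, against 9.64% of all tested genes), 1 rose (6.67%, against 8.36%) and 11 did not pass, with a median of -0.63. SHM2 (YLR058C), the cytosolic serine hydroxymethyltransferase and a known Bas1 target, had -1.35, -3.15 and -1.77 and fell to -2.09 ± 0.94 (4.25-fold lower; adjusted p = 0.0177, limma). MIS1 (YBR084W), the mitochondrial counterpart of ADE3, fell to -1.44 ± 0.49 (adjusted p = 0.0232), with -1.85, -1.57 and -0.89.

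The third gene that fell was FOL1 (YNL256W) of folate synthesis, chosen for mention after its values were seen, at -0.98 ± 0.19 (adjusted p = 0.0437, limma). MET13 (YGL125W), the reductase that sends one-carbon units to methionine, rose to 2.12 ± 1.31 (4.35-fold higher; adjusted p = 0.0266), with 3.31, 0.72 and 2.33. The glycine cleavage genes GCV1, GCV2 and GCV3, also chosen after their values were seen, had means between -0.15 and 0.20 and their lowest value on array 2 (-0.43, -1.22 and -0.65).

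Genes that use PRPP or belong to histidine synthesis differed in direction between arrays. Of 10 tested, 1 fell (10%, near the 9.64% of all tested genes), 2 rose (20%, against 8.36%) and 7 did not pass. Their median was 0.91, with array medians of 1.75, -0.73 and 1.63, and 2, 7 and 2 of the 10 were below 0 on arrays 1, 2 and 3. Histidine synthesis releases an intermediate of the route to IMP, and its genes HIS1, HIS4 and HIS7 are known targets of Bas1 as well as of the amino acid regulator Gcn4. The pattern of ADE3 and ADE8, positive on arrays 1 and 3 and negative on array 2, was found in 5 of these 10 genes (HIS1, HIS4, HIS5, HIS7 and TRP4), against the 9.87% of all tested genes given above. That pattern was picked from these same data, so the count is a description only. HIS6, which had no value on array 1 and was not tested, was below 0 on both array 2 (-0.93) and array 3 (-1.71).

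HIS2 (YFR025C), histidinol phosphatase, rose to 1.28 ± 0.80 (2.43-fold higher; adjusted p = 0.0457, limma), with 1.82, 0.36 and 1.67. The isoenzyme genes URA5 (YML106W) and URA10 (YMR271C), which join orotate to PRPP for pyrimidine synthesis, moved apart. URA5 fell to -1.61 ± 0.12 (adjusted p = 0.0144) and URA10 rose to 2.15 ± 0.54 (adjusted p = 0.0121). URA10 was higher than URA5 by 3.35, 4.34 and 3.60 log2 units on arrays 1, 2 and 3.

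**Figure D4:**
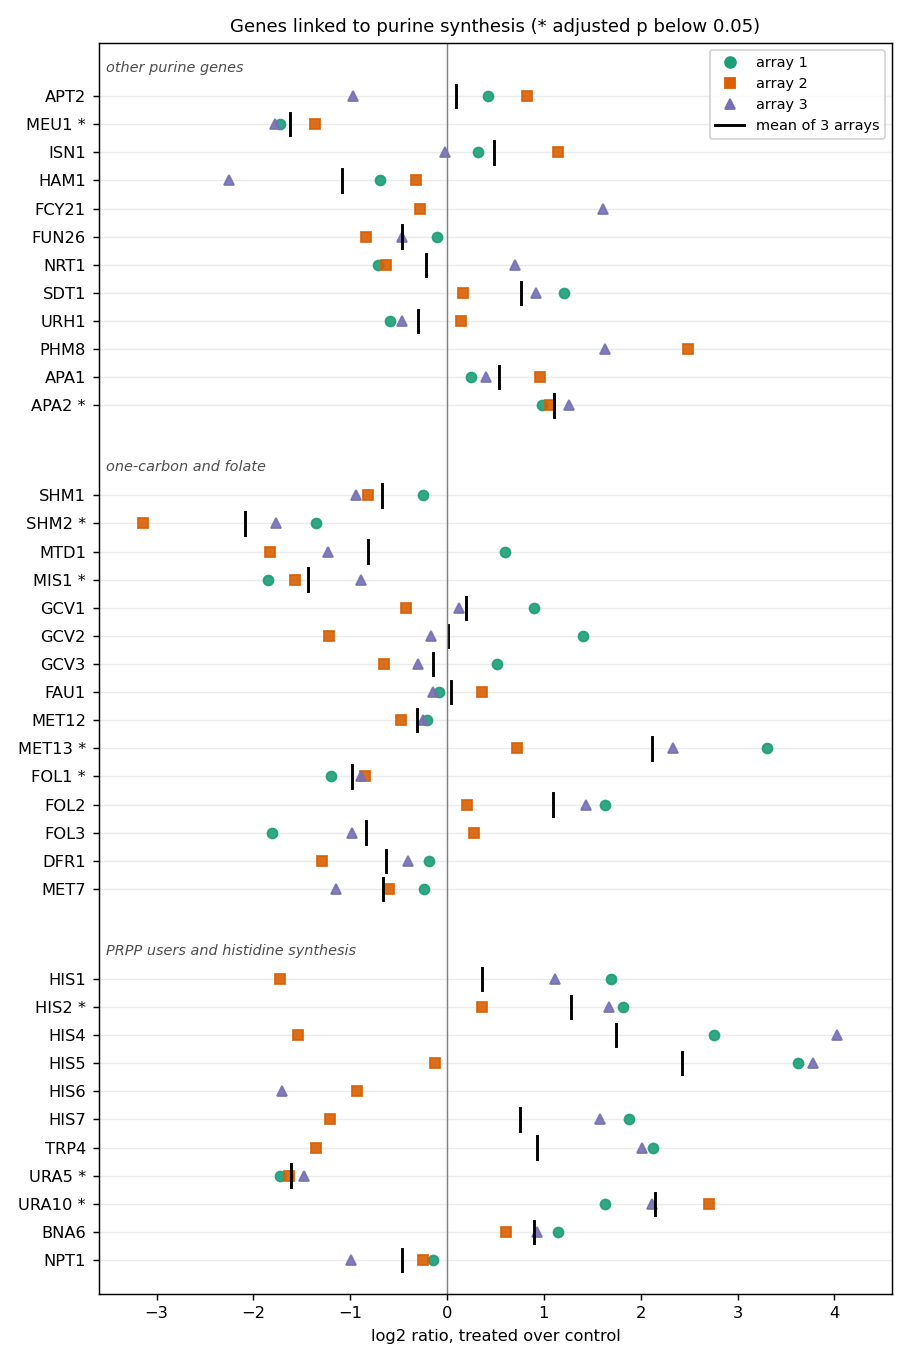
Log2 ratio of treated over control (horizontal axis) for the linked genes on arrays 1, 2 and 3 (circles, squares and triangles), with the mean of the 3 arrays as a black tick and asterisks for an adjusted p below 0.05 in limma. MEU1, SHM2, MIS1, FOL1 and URA5 lie left of 0 on every array, and HIS1, HIS4, HIS5, HIS7 and TRP4 lie right of 0 on arrays 1 and 3 and left of it on array 2.

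The last list held other genes of purine handling together with some that act on other nucleosides or nucleotides, such as URH1, SDT1 and NRT1. Its tested genes were near the bulk of the array. Of 10 tested, 1 fell and 1 rose (10% each, against 9.64% and 8.36% of all tested genes), 8 did not pass, and the median was -0.06. PHM8 and FCY21 had no value on array 1 and were not tested. On arrays 2 and 3 PHM8 had 2.48 and 1.63, and FCY21 had -0.28 and 1.61. MEU1 (YLR017W), the methylthioadenosine phosphorylase that returns adenine from polyamine synthesis, had -1.73, -1.37 and -1.78 and fell to -1.62 ± 0.22 (3.08-fold lower; adjusted p = 0.0152, limma). APA2 (YDR530C), a phosphorylase of diadenosine tetraphosphate, rose to 1.10 ± 0.15 (2.14-fold higher; adjusted p = 0.0316), with 0.98, 1.06 and 1.26. APT2 (YDR441C), a copy of APT1, had 0.42, 0.82 and -0.97 and was thus opposite to APT1 on arrays 1 and 2 (adjusted p = 0.884).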

How the data were processed

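Per the labels, polyadenylated RNA of treated and control cultures was labelled with Cy5 and Cy3 and hybridised together, and the authors normalised the spots of flag value 0 by LOWESS. The deposited values, 1 per spot and array, are log ratios taken as log2. Scanner, background correction and array type are not stated in the sources. Without intensities, spots near background or saturation could not be told from others, and the number of arrays limits the precision.

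Of 6272 spots, 5308 had 1 gene symbol in the platform annotation, 0 had several and 964 had none. The identifiers of 5304 were found in RefSeq assembly R64, which gave current symbols and gene order. Several spots of 1 gene were averaged within each array. Genes with a value on all 3 arrays (3039) were each tested for a mean ratio other than 0 (limma 3.58.1, R 4.3.3, lmFit with 1 intercept and eBayes with a prior of 5.31 degrees of freedom beside 2 residual ones, two-sided, Benjamini-Hochberg over these genes, threshold 0.05). The test was run on simulated data whose shifts were larger than most means reported here, so recovery of smaller changes was not checked. Lists were described by counts and medians, without a test.

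All purine genes matched are named. Of each linked list up to 2 highest and 2 lowest passing genes are named, others as stated. Members and lists were chosen with earlier results of these data known. Alternatives were centring or scaling the arrays (to equal median absolute log ratio), robust or no moderation, array weights, genes on at least 2 arrays, genes with 1 spot, spot medians, a threshold of 0.01 and leaving out each array.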

Additional observations from a re-analysis of the deposited data

How the results depend on the processing

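Of the 12 purine genes that fell, all 12 were called again with scaled arrays, robust moderation, spot medians, array weights (15 in all) and without array 2, and 11 with centred arrays, with genes on at least 2 arrays or with genes of 1 spot. With a threshold of 0.01 the calls were 2 of the purine genes and 36 of all genes (13 lower and 23 higher). Without moderation 0 genes passed in either direction (at an unadjusted p below 0.05, 8 purine genes were lower, 1 was higher and 635 of all genes differed). Leaving out single arrays gave 0 to 14 purine genes lower and 0 to 1 higher, and over all genes 0 to 739 calls (0 to 366 lower and 0 to 373 higher). The counts of 0 came without array 1 or array 3, where 635 and 715 genes passed at an unadjusted p below 0.05. The AMP branch median ranged from -1.02 to -0.74 when an array was left out, and with ADE13 added it was -0.96. Means that changed sign were those of ADE8 with centred arrays (0.015), with array weights (0.36) and from -0.53 to 0.76 when an array was left out, of ADE3 (-0.25 to 0.94), of ADO1 (-0.64 to 0.20) and of YNK1 (-0.26 to 0.77), and none of these genes passed in any setting. The arrays form a single group, each with its own control. The test of their log ratios against 0 thus compared treated with control within each array, and no further pairing was made. With 2 arrays left, 1 residual degree of freedom remained per gene before moderation.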
